A study of Mus musculus with 6 samples.

Results

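The genes described here are 36 genes of T cells and natural killer (NK) cells, chosen by name: the T cell receptor complex and its kinases, surface proteins and transcription factors of T cells, and the receptors, factors, cytotoxic granule proteins and secreted products of NK cells and cytotoxic T cells. All 36 were found among the 53546 genes counted, and 34 of them were among the 20541 genes that passed the filter on low counts. RNA came from primary liver non-parenchymal cells of male mice of 2 genotypes, wild type and SRA-/-, with 3 libraries each. Every mouse had received acetaminophen into the peritoneum at 400 mg/kg, and the cells were taken 6 h later. The SRA-/- mice carry a disruption of Msr1, which encodes scavenger receptor A, a receptor of macrophages. The sources used here name no strain, age or disrupted exon. Since both genotypes were treated, no value below is a response to acetaminophen.

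T cells recognise peptides on MHC molecules through a receptor of an alpha and a beta chain, which signals through the CD3 chains and the zeta chain. The kinase Lck phosphorylates these chains, Zap70 docks on them, and Zap70 then phosphorylates the adaptor Lat. NK cells have no such receptor and use activating and inhibitory receptors such as those of the NK gene complex. Both kinds of cell kill by releasing perforin and granzymes, and the liver is known for holding many NK cells, related innate lymphoid cells and resident T cells.

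The libraries held between 23757203 and 44003902 counts. The 36 genes together took between 0.00754% of the counts (exact 95% interval 0.00712% to 0.00797%) in wild type replicate 1 and 0.0147% (0.0141% to 0.0153%) in SRA-/- replicate 2. A hepatocyte list of 10 genes took 3.10% to 9.40% of the counts, and 12 pancreatic acinar genes summed to between 9033 and 27495 counts in 4 libraries but to 140 and 59 in SRA-/- replicates 1 and 3. Defining markers of liver non-parenchymal cells were present in every library, with summed levels of 1495 to 2918 CPM (counts brought to one common library size, with each total adjusted by edgeR's TMM factor) for 6 endothelial genes and 467 to 1303 CPM for 7 Kupffer cell genes. Msr1 still gave reads in SRA-/- libraries, at 75.2 ± 37.6 CPM in wild type against 38.6 ± 4.44 CPM (SD, n = 3 each) (log2 fold change -0.96 ± 0.33 SE, edgeR adjusted p 0.9999). Reads from a disrupted but transcribed Msr1 would be counted too, so its count does not check the labels. In RNA of mixed cells, fewer cells of a type and less RNA per cell cannot be told apart.

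No T or NK cell gene passed the test between genotypes. After adjustment over all 20541 tested genes edgeR's quasi-likelihood test called 0 of 34, where it called 0.0487% of all tested genes (0.0341% as higher), and every adjusted p of these genes was 0.9999. Before adjustment 6 of 34 had a p under 0.05 (Lat, Cd6, Il2rb, Bcl11b, Cd4 and Cd2), all higher in SRA-/- libraries. Of all tested genes 3.22% had such a p, 2.32% as higher and 0.896% as lower, and of the genes within the abundance range of the list 3.61% had one. DESeq2 also called 0 and limma-voom with quality weights called 1, Lat. The unadjusted count was 3 without wild type replicate 2, 11 without wild type replicate 3 and 1 without SRA-/- replicate 2.

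The log2 fold changes nevertheless lay mostly on one side. Of the 34 tested genes 29 were above 0, where 48.3% of all tested genes and 47.8% of those in the same abundance range were, and the median was 0.42 against -0.01 over all tested genes. All 22 T cell genes were above 0, with a median of 0.47, and they were so under each scaling tried, though Trac was at -0.16 with limma-voom and Trac, Cd5, Cd8a, Cd8b1, Cd27 and Tcf7 were each below 0 with some single library left out. Of the 12 tested NK and cytotoxic genes 7 were above 0, and the 5 below 0 were Gzma, Gzmb, Prf1, Eomes and Tbx21. In 12 of 34 genes every SRA-/- library lay above every wild type library, and in 0 every one lay below. Over all tested genes these shares were 3.97% and 3.33%. With scaling by library totals alone the 12 became 6 (Cd3g, Lat, Cd2, Cd6, Bcl11b and Il2rb), against 3.51% of all tested genes.

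**Figure D1:**
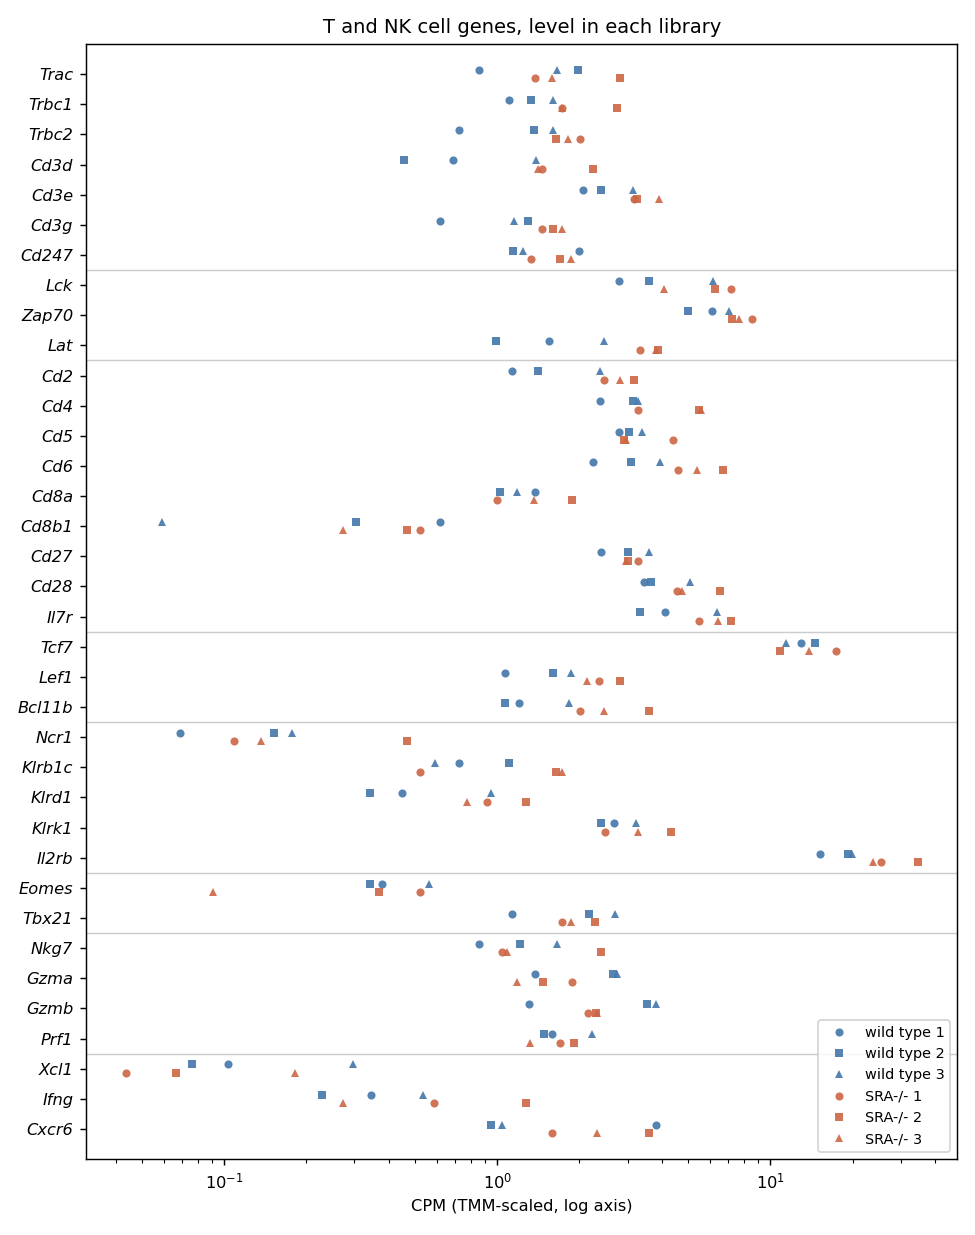
Level of the 36 genes in each library, in TMM-scaled CPM on a log axis, grouped from top to bottom by T cell receptor complex, signalling, surface proteins, T cell factors, NK receptors, T-box factors, cytotoxic granule, and secreted and homing genes. Blue marks are wild type and orange marks SRA-/- libraries, with circle, square and triangle for replicates 1, 2 and 3. Il2rb and Tcf7 lie highest, and Ncr1, Xcl1, Cd8b1 and Eomes are among the lowest.

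Levels per length, as CPM per kilobase of exon averaged over the 6 libraries, ran from 5.37 for Il2rb to 0.0908 for Eomes. Tcf7 followed Il2rb at 4.48. Zap70, Trbc1, Trbc2, Gzma, Trac and Gzmb lay between 1.79 and 2.32. Among the CD3 chains the values were lower, at 0.732 for Cd3e, 0.701 for Cd3d and 0.400 for Cd3g. The NK receptor gene Ncr1 had 0.120. These levels are low: the median spread between wild type libraries was 32.1% of the mean over the 34 tested genes, and counting fragments alone would give a median of 19.6%. In SRA-/- libraries the spread was 23.2% and counting alone 16.3%.

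The T cell receptor complex comprised 7 genes, all with log2 fold changes above 0 and 0 with an unadjusted p under 0.05 by edgeR. Trac, the constant part of the alpha chain (chromosome 14, 54457978 to 54461663, mm39), had 0.859, 1.97 and 1.66 CPM in wild type and 1.37, 2.81 and 1.59 CPM in SRA-/- replicates 1, 2 and 3. The groups overlapped, and its log2 fold change of 0.36 ± 0.42 (SE) became -0.020 without SRA-/- replicate 2. Trbc1 and Trbc2, the 2 alternative constant parts of the beta chain, lie 6848 bases apart on chromosome 6. Trbc1 had 1.10, 1.33 and 1.60 CPM in wild type and 1.72, 2.74 and 1.72 CPM in SRA-/- libraries, and Trbc2 0.722, 1.37 and 1.60 against 2.00, 1.64 and 1.82 CPM. Both were thus higher in each SRA-/- library, by a narrow margin, with log2 fold changes of 0.61 ± 0.34 and 0.56 ± 0.37 (SE). Their constant parts are nearly alike in sequence, so reads that matched both were not counted and both levels are uncertain.

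The 3 CD3 chain genes, which carry the receptor's signal into the cell, lie together on chromosome 9, with Cd3d and Cd3g 1354 bases apart. Cd3d (44893084 to 44898637) had 0.687, 0.456 and 1.39 CPM in wild type and 1.46, 2.24 and 1.41 CPM in SRA-/- replicates 1, 2 and 3. Its log2 fold change was 0.99 ± 0.45 (SE), with a 95% interval of -0.03 to 2.01 and an unadjusted p of 0.0555 by edgeR. Cd3e had 2.53 ± 0.552 CPM in wild type and 3.44 ± 0.402 CPM in SRA-/- libraries (SD, n = 3 each), and Cd3g 1.02 ± 0.355 and 1.60 ± 0.134 CPM. All 3 were higher in every SRA-/- library than in every wild type library, although wild type replicate 3 came close to the lowest SRA-/- library for Cd3e and Cd3d. Cd247, the zeta chain, had a log2 fold change of 0.15 ± 0.35, and 60.3% of its exon bases are shared with Pou2f1 and Gm16565, where reads were not counted.

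Promoters are shown for 4 genes: for Cd3d and Cd3g because they are neighbours on opposite strands that were both higher in every SRA-/- library, for Lat because it had the smallest p of the list, and for Gzmb as a gene below 0. They come from RefSeq in GRCm38.p6, 250 bases before to 50 after the start of the transcript, at chr9:44981536-44981835 (+), chr9:44980382-44980681 (-), chr7:126369519-126369818 (-) and chr14:56262285-56262584 (-), each read 5′ to 3′ along the gene. Capitals mark matches on either strand to TGTGGT (the core bound by RUNX factors), CAGGAAG (ETS factors), CTTTGA (TCF and LEF factors), TCACAC (T-box factors) or CAGCTG (an E-box). No 2 of these matches overlap in the promoters shown.
Cd3d: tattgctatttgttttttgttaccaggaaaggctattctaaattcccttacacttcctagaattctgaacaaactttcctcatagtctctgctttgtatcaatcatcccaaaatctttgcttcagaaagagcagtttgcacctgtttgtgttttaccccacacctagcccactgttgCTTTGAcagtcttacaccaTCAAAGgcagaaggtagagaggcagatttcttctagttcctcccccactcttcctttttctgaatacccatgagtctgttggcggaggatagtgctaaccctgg
Cd3g: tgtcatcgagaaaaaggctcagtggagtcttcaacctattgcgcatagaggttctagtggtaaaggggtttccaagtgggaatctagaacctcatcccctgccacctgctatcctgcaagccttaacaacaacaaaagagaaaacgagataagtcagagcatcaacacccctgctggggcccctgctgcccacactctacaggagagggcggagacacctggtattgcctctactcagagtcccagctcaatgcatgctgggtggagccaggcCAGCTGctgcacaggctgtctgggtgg
Lat: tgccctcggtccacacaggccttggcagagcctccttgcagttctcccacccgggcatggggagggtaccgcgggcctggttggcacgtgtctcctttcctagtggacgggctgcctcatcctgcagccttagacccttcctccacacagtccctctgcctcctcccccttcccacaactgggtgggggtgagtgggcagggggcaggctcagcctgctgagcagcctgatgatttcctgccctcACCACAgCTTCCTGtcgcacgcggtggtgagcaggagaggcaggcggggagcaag
Gzmb: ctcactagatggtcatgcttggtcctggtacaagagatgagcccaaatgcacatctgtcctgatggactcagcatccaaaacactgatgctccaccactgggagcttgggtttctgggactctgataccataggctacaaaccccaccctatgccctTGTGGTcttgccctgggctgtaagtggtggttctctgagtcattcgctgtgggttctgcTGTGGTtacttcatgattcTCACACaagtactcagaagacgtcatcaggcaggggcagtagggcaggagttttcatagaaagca
Of the 36 genes 26 had a promoter in the table, with 34 starts in all. TGTGGT was found in 14 of these 34 (41.2%), against 16.8% of all 32851 promoters, and CAGGAAG also in 14 (41.2%), against 13.3%. CTTTGA was found in 8 (23.5%, against 16.0%), TCACAC in 9 (26.5%, against 14.5%) and CAGCTG in 7 (20.6%, against 16.3%). A match is a description of the letters only.

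Of the 3 signalling genes Lat had the largest fold change. Lat, the adaptor phosphorylated by Zap70 (chromosome 7, 125962996 to 125968742), had 1.55, 0.987 and 2.46 CPM in wild type and 3.33, 3.87 and 3.81 CPM in SRA-/- replicates 1, 2 and 3. The groups did not overlap, and the SRA-/- libraries lay close together. On the log2 scale the difference was 1.13 ± 0.35 (SE), its 95% interval ran from 0.34 to 1.91, and the unadjusted p by edgeR was 0.00969. With edgeR the adjusted p was 0.9999. It was 0.262 with DESeq2, and limma-voom gave an adjusted p of 0.0427. With 1 library left out the value lay between 0.87 and 1.53. Lat is also made by platelets and mast cells. Summed levels of 5 platelet genes ran from 54.1 to 68.4 CPM in wild type and from 39.4 to 63.5 CPM in SRA-/- libraries. Of 5 mast cell and basophil genes 4 (Cpa3, Ms4a2, Mcpt8 and Fcer1a, but not Kit) were below 0.5 CPM in every library. Whether platelets or mast cells have a part in the values of Lat was not tested.

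Zap70 and Lck, the kinases before Lat, showed smaller differences. Zap70 had 6.12, 4.97 and 7.05 CPM in wild type and 8.57, 7.25 and 7.67 CPM in SRA-/- libraries, with no overlap and a log2 fold change of 0.37 ± 0.22 (SE). Lck had 2.78, 3.61 and 6.16 CPM in wild type and 7.16, 6.25 and 4.09 CPM in SRA-/- libraries. Wild type replicate 3 lay above SRA-/- replicate 3, and the log2 fold change of Lck was 0.48 ± 0.34 (SE).

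Among 9 surface proteins of T cells Cd6, Cd2 and Cd4 had an unadjusted p under 0.05 by edgeR. Cd6, a receptor that tunes T cell activation, had 2.23, 3.08 and 3.94 CPM in wild type and 4.57, 6.71 and 5.40 CPM in SRA-/- replicates 1, 2 and 3, with no overlap. Its log2 fold change was 0.85 ± 0.29 (SE), with an unadjusted p of 0.0156 by edgeR. Cd5, a related inhibitory receptor 50338 bases away on chromosome 19, had 3.07 ± 0.297 and 3.42 ± 0.848 CPM (SD, n = 3 each) and overlapped between the groups. Cd2, an adhesion receptor of T and NK cells, had 1.13, 1.40 and 2.37 CPM against 2.46, 3.17 and 2.81 CPM, or 0.77 ± 0.34 (SE) on the log2 scale. All SRA-/- libraries were above wild type for Cd2, wild type replicate 3 being closest to them.

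The coreceptors Cd4 and Cd8a did not separate the groups. Cd4 had 2.37, 3.15 and 3.29 CPM in wild type and 3.29, 5.48 and 5.58 CPM in SRA-/- libraries, where SRA-/- replicate 1 met the highest wild type library. Its log2 fold change was 0.70 ± 0.29 (SE). Cd8a had 1.19 ± 0.175 and 1.41 ± 0.437 CPM (SD, n = 3 each), with a log2 fold change of 0.23 ± 0.36, and Cd8b1, its partner chain, had between 2 and 24 counts per library. Per kilobase, Cd4 was 1.56, 2.77 and 2.50 times Cd8a in wild type and 2.96, 2.64 and 3.70 times Cd8a in SRA-/- libraries. These ratios overlapped. Cd4 is also made by macrophages and dendritic cells, so the ratio is not one of T cell subsets alone.

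The other surface genes had log2 fold changes between 0.04 and 0.46. The costimulatory receptor gene Cd28 had 0.38 ± 0.27, the interleukin-7 receptor gene Il7r 0.46 ± 0.28 and Cd27, a costimulatory receptor of the TNF receptor family, 0.04 ± 0.26 (SE). The interval of Cd27, from -0.55 to 0.63, lay within a 2-fold change in either direction. Over the 34 tested genes 28 intervals held 0, 23 reached a 2-fold rise and 4 reached a 2-fold fall.

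**Figure D2:**
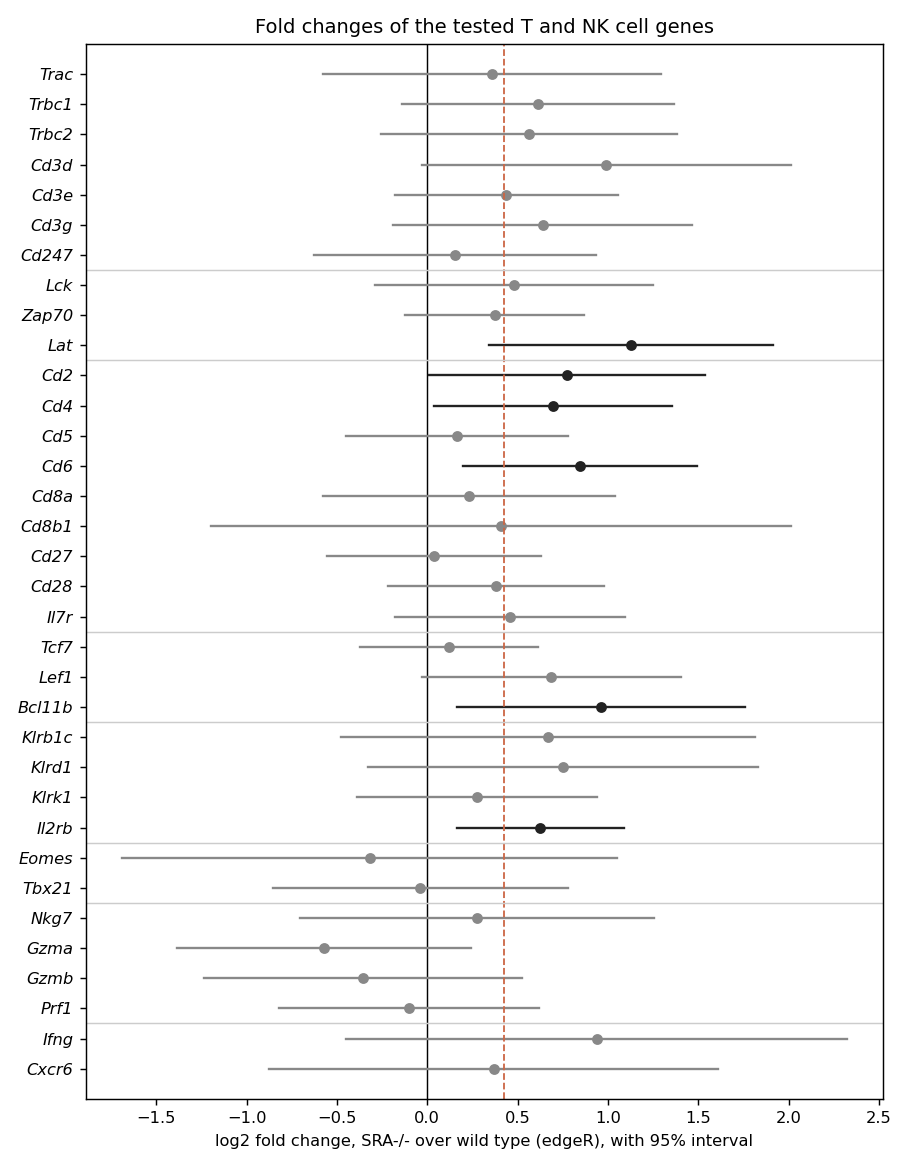
Log2 fold change of each of the 34 tested genes, SRA-/- over wild type, with its 95% interval from edgeR's quasi-likelihood fit. Dark marks have an unadjusted p under 0.05, grey marks do not, and the dashed line is the median of the 34 genes at 0.42. All T cell genes lie right of 0, and Gzma, Gzmb, Prf1, Eomes and Tbx21 lie left of it.

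Of the 3 T cell factors Bcl11b, which is needed to keep T cell identity, had 1.20, 1.06 and 1.84 CPM in wild type and 2.00, 3.61 and 2.45 CPM in SRA-/- libraries. The groups did not overlap, which gave 0.96 ± 0.36 (SE) on the log2 scale and an unadjusted p of 0.0229 by edgeR. Lef1, a partner of beta-catenin in naive T cells, was also higher in each SRA-/- library, at 2.43 ± 0.343 against 1.51 ± 0.407 CPM (SD, n = 3 each), and 13.7% of its exon bases are shared with Lef1os1. Tcf7, the related factor and the most abundant of the 3 per length, had 11.4 to 14.5 CPM in wild type, with a log2 fold change of 0.12 ± 0.22. Its highest value, 17.5 CPM, and its lowest, 10.9 CPM, were both in SRA-/- libraries.

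Of the 5 NK receptor genes 4 passed the filter, all with log2 fold changes above 0. Il2rb, the beta chain of the receptors for interleukin-2 and interleukin-15 (chromosome 15, 78363456 to 78379471), had 15.3, 19.2 and 19.9 CPM in wild type and 25.4, 34.7 and 23.7 CPM in SRA-/- replicates 1, 2 and 3. Each SRA-/- library lay above each wild type library. This gave 0.62 ± 0.21 (SE) on the log2 scale, a 95% interval from 0.16 to 1.09 and an unadjusted p of 0.0134 by edgeR. Il2rb was the best measured of the 36 genes, with 444 to 1167 counts per library.

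Receptors encoded in the NK gene complex on chromosome 6 did not separate the groups. Klrk1, which encodes the activating receptor NKG2D, had 2.77 ± 0.424 and 3.36 ± 0.934 CPM (SD, n = 3 each). Klrd1, which encodes CD94 and lies 11547 bases from Klrk1, had a log2 fold change of 0.75 ± 0.48 (SE), and Klrb1c, which encodes NK1.1, one of 0.67 ± 0.51. Klrb1c had 0.722, 1.10 and 0.592 CPM in wild type and 0.522, 1.64 and 1.72 CPM in SRA-/- replicates 1, 2 and 3, so SRA-/- replicate 1 was the lowest of all. Ncr1, the NK receptor NKp46, had counts of 2, 4 and 6 in wild type libraries against 5, 14 and 3 in SRA-/- ones, near the floor of 6 counts, and was not tested.

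Of the 4 cytotoxic granule genes Gzma, Gzmb and Prf1 had log2 fold changes below 0 and Nkg7 one above 0, and 0 of them had an unadjusted p under 0.05 by edgeR. Their difference from the T cell genes was not tested. Gzma, a granzyme of NK and cytotoxic T cells (chromosome 13, 113230359 to 113237515), had 1.37, 2.66 and 2.75 CPM in wild type and 1.87, 1.47 and 1.18 CPM in SRA-/- replicates 1, 2 and 3. Wild type replicate 1 lay among the SRA-/- libraries. Its log2 fold change was -0.57 ± 0.36 (SE), with an unadjusted p of 0.147 by edgeR. Gzmb, the granzyme that cleaves caspases, had 1.31, 3.53 and 3.82 CPM in wild type and 2.15, 2.30 and 2.32 CPM in SRA-/- libraries, which is -0.36 ± 0.39 (SE) on the log2 scale. Without wild type replicate 1 the values of Gzma and Gzmb were -0.82 and -0.70, with unadjusted p of 0.0333 and 0.0316 by edgeR. Without wild type replicate 3 they were -0.40 and -0.097, and the median of the 4 cytotoxic genes, -0.23 over all libraries, was 0.0036. For both granzymes wild type replicates 2 and 3 lay above, and for Gzmb replicate 1 below, all SRA-/- libraries.

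Prf1, the pore-forming perforin, had 1.76 ± 0.402 and 1.64 ± 0.298 CPM, and Nkg7, a granule membrane protein, 1.24 ± 0.400 and 1.51 ± 0.773 CPM (SD, n = 3 each). Their log2 fold changes were -0.10 ± 0.32 and 0.28 ± 0.44 (SE), and that of Nkg7 was -0.22 without SRA-/- replicate 2. The T-box factors that direct NK and cytotoxic T cell programmes were Tbx21 at -0.04 ± 0.36 and Eomes at -0.32 ± 0.61. Eomes had 9 to 19 counts in wild type libraries and 24, 11 and 2 in those of SRA-/- mice.

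Of the secreted and homing genes none separated the groups. Ifng, which encodes interferon gamma, had 0.344, 0.228 and 0.533 CPM in wild type and 0.588, 1.27 and 0.272 CPM in SRA-/- libraries, or 0.94 ± 0.62 (SE) on the log2 scale, which rested on 6 to 38 counts per library. Another gene, Gm49751, shares 25.9% of the exon bases of Ifng. Cxcr6, the receptor that holds liver-resident lymphocytes on the sinusoid, had 3.81, 0.949 and 1.04 CPM in wild type and 1.59, 3.61 and 2.32 CPM in SRA-/- libraries. Wild type replicate 1, the lowest library in 18 of the 36 genes, was here the highest, and without it the log2 fold change of Cxcr6 was 1.33 in place of 0.37. The chemokine gene Xcl1 had 2 to 10 counts per library and was not tested.

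**Figure D3:**
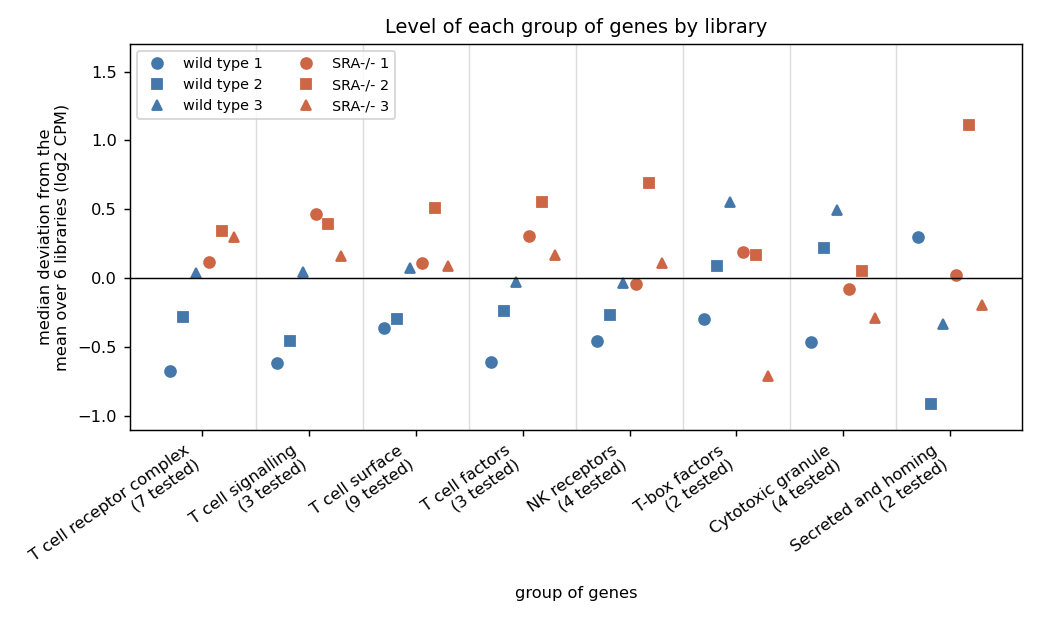
Median deviation of the tested genes of each group from their own mean over the 6 libraries, in log2 CPM, for each library (blue wild type, orange SRA-/-, marker shape the replicate). In the 4 T cell groups all SRA-/- libraries lie above all wild type libraries, and in the cytotoxic group wild type replicates 2 and 3 lie above every SRA-/- library.

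Across libraries, the 22 T cell genes had median deviations from their own means of -0.58, -0.29 and 0.04 (log2 CPM) for wild type replicates 1, 2 and 3, and 0.19, 0.49 and 0.23 for the SRA-/- ones. The same for the 12 tested NK and cytotoxic genes was -0.37, -0.13 and 0.35 against -0.06, 0.58 and -0.05. Wild type replicate 1 was the lowest library in 18 of the 36 genes and SRA-/- replicate 2 the highest in 17. With these 2 libraries left out together, an alternative chosen after seeing the data, 25 of 33 tested genes were above 0 and the median was 0.29.

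Some other leukocyte lists were also higher in SRA-/- libraries and others were not, and edgeR called 0 genes in each list named here. DESeq2 called 4 of 7 neutrophil genes and 1 gene each of the B cell, plasmacytoid dendritic and other dendritic lists. With limma-voom 1 gene was called in each of these lists and in that of all leukocytes. Of all tested genes DESeq2 called 0.375% and limma-voom 0.365%. Ptprc, the leukocyte antigen CD45, had 37.5, 55.3 and 84.7 CPM in wild type and 79.7, 83.2 and 87.0 CPM in SRA-/- libraries. Summed levels of 5 genes of all leukocytes ran from 132 to 244 CPM in wild type and from 260 to 308 CPM in SRA-/- libraries, and those of 8 B cell genes were at most 16.5 CPM in wild type and ran from 26.4 to 40.7 CPM in SRA-/- libraries. All 5 and all 8 had log2 fold changes above 0, with medians of 0.49 and 1.09, and none of these markers was near 0. Summed levels of 7 neutrophil genes ran from 45.4 to 51.8 CPM in wild type and from 61.7 to 212 CPM in SRA-/- libraries. The SRA-/- mean of the sum was 0.994 times that of wild type for monocyte genes, 1.03 times for Kupffer cell genes and 0.966 times for dendritic cell genes. Each of these sums overlapped between the groups. Fn1 made up nearly all of the monocyte sum, at means of 2887 CPM in wild type and 2869 CPM in SRA-/- libraries. Of the 6 monocyte genes 3 had log2 fold changes above 0. In every SRA-/- library 1 of the 6 was higher and 0 were lower, against 3.97% and 3.33% of all tested genes. In the dendritic list Zbtb46, with means of 24.4 and 19.3 CPM, was lower in every SRA-/- library and Itgax higher. For plasmacytoid dendritic cell genes the SRA-/- mean of the sum was 0.865 times that of wild type, and the sum was lower in every SRA-/- library. The single genes of this last list were divided, with 3 of the 5 tested higher and 2 lower in SRA-/- mice. Bst2, its most abundant gene per length, averaged 26.4 CPM in wild type and 27.1 CPM in SRA-/- libraries. Whether these cells have a part in the values of genes that they share with T and NK cells, such as Cd2 and Cd5, was not tested.

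Set against Ptprc within each library, which needs no scaling between libraries, the 7 genes of the T cell receptor complex overlapped between the groups. As a percentage of Ptprc, their sum in wild type was 21.5%, 18.0% and 13.9%, and in SRA-/- libraries it was 15.7%, 19.2% and 16.1%. For the 4 cytotoxic genes the sum in wild type was 13.7%, 16.1% and 12.3% of Ptprc, and in SRA-/- libraries it was 8.49%, 9.71% and 6.78%, so every SRA-/- library was lower in this ratio. The sum of the 4 cytotoxic genes itself overlapped, at 5.12 to 10.5 CPM in wild type and 5.90 to 8.08 CPM in SRA-/- libraries, while Ptprc was lowest in wild type replicates 1 and 2. Cytotoxic over T cell receptor complex levels had ratios of 0.637, 0.893 and 0.887 in wild type, against 0.541, 0.506 and 0.421 for SRA-/-, again without overlap. The 5 NK receptor genes, of which Il2rb made up most, were 2.27 ± 0.148 and 2.37 ± 0.273 times the T cell receptor complex (SD, n = 3 each) and overlapped. These ratios were chosen after the values were seen and are given without a test.

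**Figure D4:**
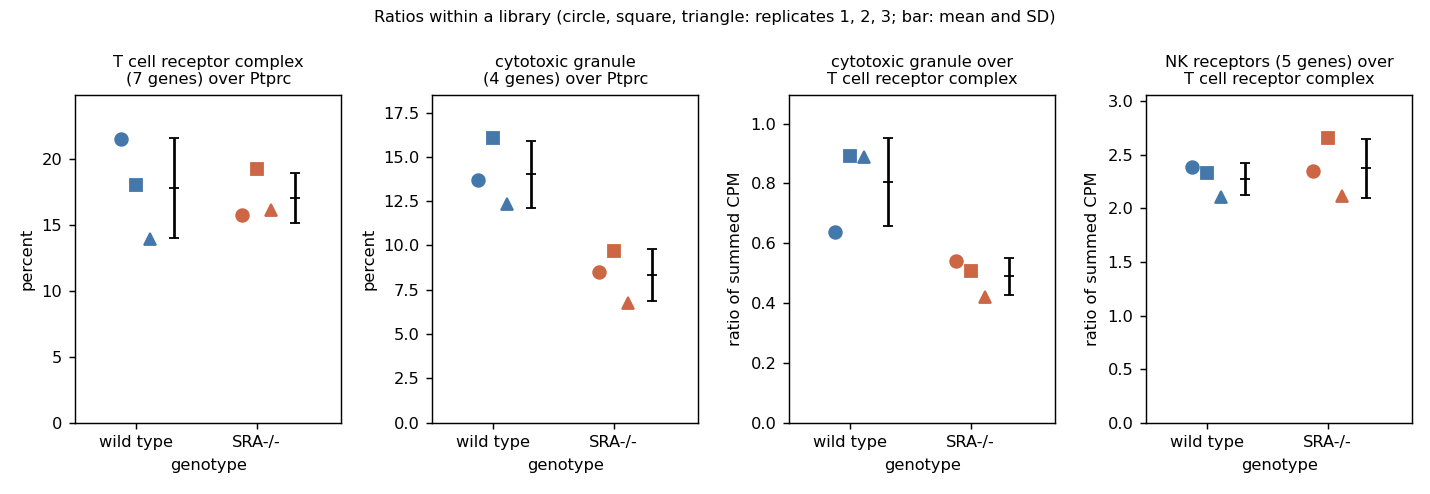
Ratios of summed CPM within each library for wild type (blue) and SRA-/- (orange) mice, with marker shape for the replicate and black bars for mean and SD. The 4 cytotoxic genes over Ptprc and over the T cell receptor complex do not overlap between the groups, while the T cell receptor complex over Ptprc and NK receptors over the T cell receptor complex do.

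Further genes of T cell receptor signalling were also mostly above 0. Of 20 such genes not in the list, 19 were tested and 16 were above 0, with a median log2 fold change of 0.39. By edgeR 4 had an unadjusted p under 0.05, all higher. Of all tested genes 48.3% were above 0 and 3.22% had such a p. In every SRA-/- library 2 of the 19 were higher and 0 were lower, against 3.97% and 3.33% of all tested genes. Rasgrp1, which activates Ras below the receptor, had 2.44, 3.11 and 3.76 CPM in wild type and 5.55, 10.9 and 4.72 CPM in SRA-/- libraries, which did not overlap (log2 fold change 1.18 ± 0.35 SE, edgeR unadjusted p 0.00759). Themis, a protein of thymocyte selection, had 1.04 ± 0.44 (SE), while the kinase Fyn, which many cells make and which was the most abundant per length, had -0.27 ± 0.29. After adjustment edgeR called 0 of the 19, as did DESeq2 and limma-voom.

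Of 24 other NK and cytotoxic genes 12 were tested and 4 were above 0, against 48.3% of all tested genes, with a median of -0.17. Of the 12 not tested, the inhibitory Ly49 receptor genes Klra1, Klra3, Klra4, Klra7, Klra8 and Klra9, as well as Klrg1 and Gzmk, were below 0.5 CPM in every library. Fasl, the death ligand, had 1.79, 2.35 and 2.34 CPM in wild type and 3.66, 5.38 and 3.18 CPM in SRA-/- libraries, with no overlap (0.91 ± 0.30). Cd160, a receptor of NK cells and intestinal T cells, lay the other way, again with no overlap. It had 2.96, 3.57 and 4.17 CPM in wild type and 2.35, 2.34 and 1.91 CPM in SRA-/- libraries (-0.69 ± 0.27). Of the 12 tested genes 1 was higher in every SRA-/- library and 2 were lower. Over all tested genes these shares were 3.97% and 3.33%. The receptor gene Cd244a had 1.08 ± 0.46, and Ccl5, a chemokine of activated lymphocytes and the most abundant per length, 0.59 ± 0.28 (SE).

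Among 10 genes of lymphocyte homing 6 were above 0, with a median of 0.19, and 2 had an unadjusted p under 0.05 by edgeR. Of all tested genes 48.3% were above 0 and 3.22% had such a p. In every SRA-/- library 2 of the 10 were higher and 0 were lower, against 3.97% and 3.33% of all tested genes. Ccr7, the receptor that guides naive T cells and dendritic cells to lymph nodes, had 2.54, 2.28 and 2.69 CPM in wild type against 4.09, 6.85 and 3.77 CPM in SRA-/- libraries (0.97 ± 0.30 SE), with no overlap. Cxcr3, a receptor of activated T cells, had 0.73 ± 0.49, and Klf2, the most abundant per length and a factor of endothelium too, -0.05 ± 0.26.

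Most genes of gamma delta and innate-like T cells had too few counts to test. Of 10 such genes 4 were tested, with a median log2 fold change of 0.17 and 0 with an unadjusted p under 0.05. Il17a had 0 counts in every library, and Trdc, the constant part of the delta chain, was below 0.5 CPM throughout. Trgc2, a constant part of the gamma chain, had 0.66 ± 0.51 (SE). Sox13 had 0.24 ± 0.37, and Zbtb16, the factor PLZF, was the most abundant at 332 ± 27.4 and 307 ± 18.3 CPM (SD, n = 3 each) and had -0.11 ± 0.19. Levels of Sox13 ran from 18.95 to 49.82 CPM over the libraries, where those of Trac ran from 0.859 to 2.81 CPM. Per kilobase of exon, averaged over the 6 libraries, Sox13 had 7.91, Zbtb16 60.4 and Trac 1.83 CPM. Sox13 and Zbtb16 thus lay above Trac per length as well, so their values need not be those of T cells. Which cells gave their reads was not tested.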

How the data were processed

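The titles gave genotype and replicate number and call the replicates biological. Nothing says more of their source, so p-values measure the spread between these libraries. Per the labels' protocols, total RNA was made into libraries after depletion of ribosomal RNA. The tools named in the submitters' processing notes are FastQC, STAR and featureCounts, with mm39 as the build. featureCounts 2.0.2 was run by the authors on exons of GENCODE vM26, summed by gene name, as paired-end input and without strand, per the file headers. The deposited values are raw counts, 1 file per library. Mates were counted singly (68.5% to 71.9% of counts from 1 to 4 were even), so counting error is larger than the counts give, and the floor of detection was set at 6 counts, or 3 fragments (0.136 to 0.253 CPM). Intervals of count shares and floors cover counting error only, while intervals of log2 fold changes also cover the spread between libraries. With these settings reads that lie on several genes or map to several places are not counted.

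The test was edgeR 4.0.16 in R 4.3.3 (filterByExpr, TMM, quasi-likelihood with robust dispersion, group alone), with Benjamini-Hochberg adjustment over all 20541 tested genes and a threshold of 0.05. Exact permutation of 3 against 3 libraries cannot give a p below 0.1. Deviations used log2 CPM with a prior count of 2. On data simulated for this comparison from 20541 genes, 1 of 67 genes changed 1.5-fold, 12 of 67 changed 2-fold and 53 of 66 changed 4-fold were called. Of 19689 unchanged genes 11 were called. The changed genes were drawn from all tested genes at any abundance, so these rates are not those of the T and NK cell genes. The alternatives were other scalings and filters, DESeq2 1.42.0, limma-voom (limma 3.58.1), removal of mitochondrial, hepatocyte and acinar genes, a replicate block and each library left out. No 2 libraries of a group agreed within sampling noise (lowest chi-square per degree of freedom 39.6). Of the further lists, 4 names were matched through RefSeq synonyms. The genes, lists and alternatives were chosen with earlier results of these data known. All 36 genes were named, with up to 3 genes by p and the most abundant per length of each of 4 further lists, apart from 2 genes that are not reported here. Lists of plasmacytoid and other dendritic cells, monocytes, stellate cells and cholangiocytes were summed as well.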

Additional observations from a re-analysis of the deposited data

How the results depend on the processing

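The count of T and NK cell genes past the threshold was 0 with edgeR under all scalings, filters and omissions and with DESeq2, and 1 with limma-voom. Genes above 0 numbered 25 to 31 and their median log2 fold change lay between 0.29 and 0.56 over all alternatives. The count with an unadjusted p under 0.05 was 14 with limma-voom, by which 11.6% of all tested genes had such a p, 3 with wild type replicate 1 and SRA-/- replicate 2 left out together, and 1 to 11 with 1 library left out. Groups did not overlap, higher in SRA-/-, in 6 genes with library totals alone. Over all genes, 68 were called by DESeq2, 75 by limma-voom, 32 with no filter on low counts, 101 without that pair of libraries and 3 to 40 with 1 library left out. Of 505 refits of single genes 22 changed sign, and 22 of 34 genes never did. With limma-voom these were Trac at -0.16, Klrb1c at -0.22 and Prf1 at 0.071. Without the pair they were Trac at -0.29, Cd27 at -0.073 and Nkg7 at -0.43. With 1 library left out log2 fold changes ran from -0.020 to 0.60 for Trac, from -0.067 to 0.27 for Cd5, from -0.031 to 0.44 for Cd8a, from -0.11 to 1.29 for Cd8b1, from -0.090 to 0.19 for Cd27, from -0.068 to 0.27 for Tcf7, from -0.84 to 0.059 for Eomes, from -0.31 to 0.24 for Tbx21, from -0.22 to 0.54 for Nkg7, from -0.21 to 0.10 for Prf1 and from -0.0024 to 1.33 for Cxcr6. Labels give both groups replicate numbers 1 to 3, but same-numbered libraries did not deviate together (r across genes -0.29, -0.14 and -0.13 for pairs 1, 2 and 3). With the replicate number as a block 5 genes were called in all, 0 of the T and NK list, 30 were above 0, and Tbx21 was at 0.041. The cause of these shifts was not tested. Depth limits Ncr1, Xcl1, Eomes, Cd8b1 and Ifng most.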

Other observations

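B cell genes were set against T cell genes within a library, a ratio chosen after the values were seen. Cd79a, a chain of the B cell receptor complex, was 0.867, 0.873 and 0.821 times Cd3e in wild type and 1.43, 1.75 and 1.01 times Cd3e in SRA-/- replicates 1, 2 and 3, with no overlap and the lowest SRA-/- ratio in replicate 3. Il2rb was 33.0% ± 8.77 of Ptprc in wild type and 33.6% ± 7.37 in SRA-/- libraries (SD, n = 3 each), with overlap. Of the dendritic cell list, Itgax, the integrin CD11c, which some NK cells also carry, had 2.82, 2.28 and 2.96 CPM in wild type and 7.16, 6.08 and 5.76 CPM in SRA-/- libraries. This is 1.24 ± 0.24 (SE) on the log2 scale, and the adjusted p was 0.438 with edgeR, 0.00234 with DESeq2 and 0.0122 with limma-voom. Itgax was named after its values were seen. The median log2 fold changes of the lists of other cells were 0.035 for plasmacytoid dendritic cells, 0.08 for other dendritic cells, 0.01 for monocytes, -0.06 for stellate cells and 0.14 for cholangiocytes. In the plasmacytoid dendritic list the summed level was lower in every SRA-/- library, at 37.9 to 42.4 CPM against 43.7 to 51.4 CPM in wild type. One gene of that list, Klk1, was at -2.10 ± 0.58 (SE) on the log2 scale. It was not called by edgeR, and its adjusted p was 0.0301 with DESeq2 and 0.0355 with limma-voom. Klk1 was named after its values were seen. The 12 pancreatic acinar genes, whose counts differed widely between libraries, had log2 fold changes from -2.65 to -2.02. Whether the reads of Klk1 share their source was not tested.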
